A study of Mus musculus with 19 samples.

Results

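The small leucine-rich proteoglycans are secreted proteins of the extracellular matrix whose horseshoe-shaped cores of leucine-rich repeats bind collagen fibrils. They set how thick fibrils grow and how they are spaced, and several of them hold growth factors such as TGF-beta and BMPs in the matrix. They are grouped by sequence into class I (decorin, biglycan and asporin), class II (lumican, fibromodulin, keratocan, prolargin and osteomodulin) and class III (epiphycan and osteoglycin), and differ in whether they carry chondroitin or dermatan sulfate, keratan sulfate or no glycan chain. In limbs they are known from cartilage, bone, tendon and the fibrous layers around them. The 10 genes Dcn, Bgn, Aspn, Lum, Fmod, Kera, Prelp, Omd, Epyc and Ogn were taken by symbol. They are 10 of the 18193 genes measured and hold 21 of the 34945 probe sets that name a single gene: 6 for Fmod, 3 for Bgn, 2 each for Dcn, Aspn, Prelp and Ogn, and 1 each for Lum, Kera, Omd and Epyc. The probe set with the highest mean stood for its gene.

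Expression was measured on Affymetrix mouse arrays in skeletal cells sorted from fore and hind limbs of mice at postnatal day 3, labelled wild-type and, in the growth protocol, as carrying a GFP label. Every sorted cell was CD45-, Ter119- and Tie2- and positive for integrin alpha V, and 6 populations of 3 arrays each were then separated by Thy, 6C3 and CD105. Cells negative for Thy and 6C3 (Thy-6C3-), cells with Thy alone (Thy+6C3-) and cells with 6C3 alone (Thy-6C3+) were each divided into CD105+ and CD105- cells. Below, Thy+ and 6C3+ stand for the last 2 pairs. Limbs of a litter were pooled, and nothing says that replicates came from separate litters, so p-values measure the spread between these arrays, which may be technical. A further array is labelled adult Thy+6C3+CD105+, with a source field naming sternum and ear and a tissue field naming limbs, and entered no test. Replicates 2 and 3 of Thy-6C3+CD105- carry titles that say Thy+ and were grouped by their population field. Each comparison asks how expression differs when 1 surface antigen changes, and is called a step, from cells without the antigen to cells with it. Levels are log2 values after quantile normalization, given with the SD of 3 arrays. Changes are differences of log2 means with the SE of a limma fit over all 18 neonatal arrays, and the threshold was an adjusted p of 0.05 (Benjamini-Hochberg, over the 18193 genes). The number of arrays limits the precision. Levels of different genes come from different probe sets and are not compared, except that low levels are set beside marker genes or the median gene.

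Thy1 was at 10.34 ± 0.14 and 10.23 ± 0.21 in the Thy+ populations and at 5.81 or lower on average in the 4 Thy- populations. Cartilage markers were present everywhere and highest in Thy-6C3- cells: the mean log2 level of 10 chondrocyte markers ran from 12.32 to 12.59 on Thy-6C3- arrays, from 10.07 to 10.74 on 6C3+ arrays and from 9.36 to 9.95 on Thy+ arrays. Of 10 tendon and fibrous markers, 6 and 5 rose in the Thy steps of CD105+ and CD105- cells (medians 1.02 and 0.94) and 3 and 4 in the 6C3 steps (0.78 and 0.76), and none fell. Their mean log2 level ran from 10.25 to 10.71 on Thy-6C3-, 10.98 to 11.50 on 6C3+ and 11.50 to 11.89 on Thy+ arrays, although Scx, a tendon transcription factor, stayed below the median gene level of 6.76 in every neonatal mean. Kera, Dcn, Ogn and Aspn moved the same way in the steps where they passed, and the part of tendon and fibrous cells in those results was not tested. 2 arrays stood apart, those whose mean hybridization control level lay farthest from the neonatal median. The number of 2 was chosen and not set by a cutoff. Thy-6C3+CD105- replicate 2 had 6.05 and Thy+6C3-CD105- replicate 3 had 11.25, against 9.81 to 10.76 on the other neonatal arrays. Thy+6C3-CD105- replicate 3 also correlated least with its replicates (r = 0.948). The poly-A controls, transcripts spiked into RNA before labelling, split the neonatal arrays into 11 with a high and 7 with a low level, and every population had arrays of both kinds. In bulk samples, fewer cells of a type and less RNA per cell cannot be told apart, and this holds for every difference below.

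Across the 6 populations, 6 of the 10 genes differed by limma's moderated F-test, where 10.1% of all genes did: Epyc (adjusted p = 1.70e-10), Kera (2.11e-07), Prelp (0.00385), Omd (0.0142), Aspn (0.0208) and Dcn (0.0337). Ogn (0.108), Lum (0.189), Bgn (0.264) and Fmod (0.589) did not pass. The population means of Epyc spanned 6.10 log2 units, a range larger than that of 99.99% of all genes, and those of Kera spanned 3.43 (99.64%) and of Omd 2.97 (99.35%). Bgn spanned 0.30 and Fmod 0.18, but their means lay 0.59 and 0.11 below the highest value on the scale, so nothing is read from their small ranges.

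**Figure D1:**
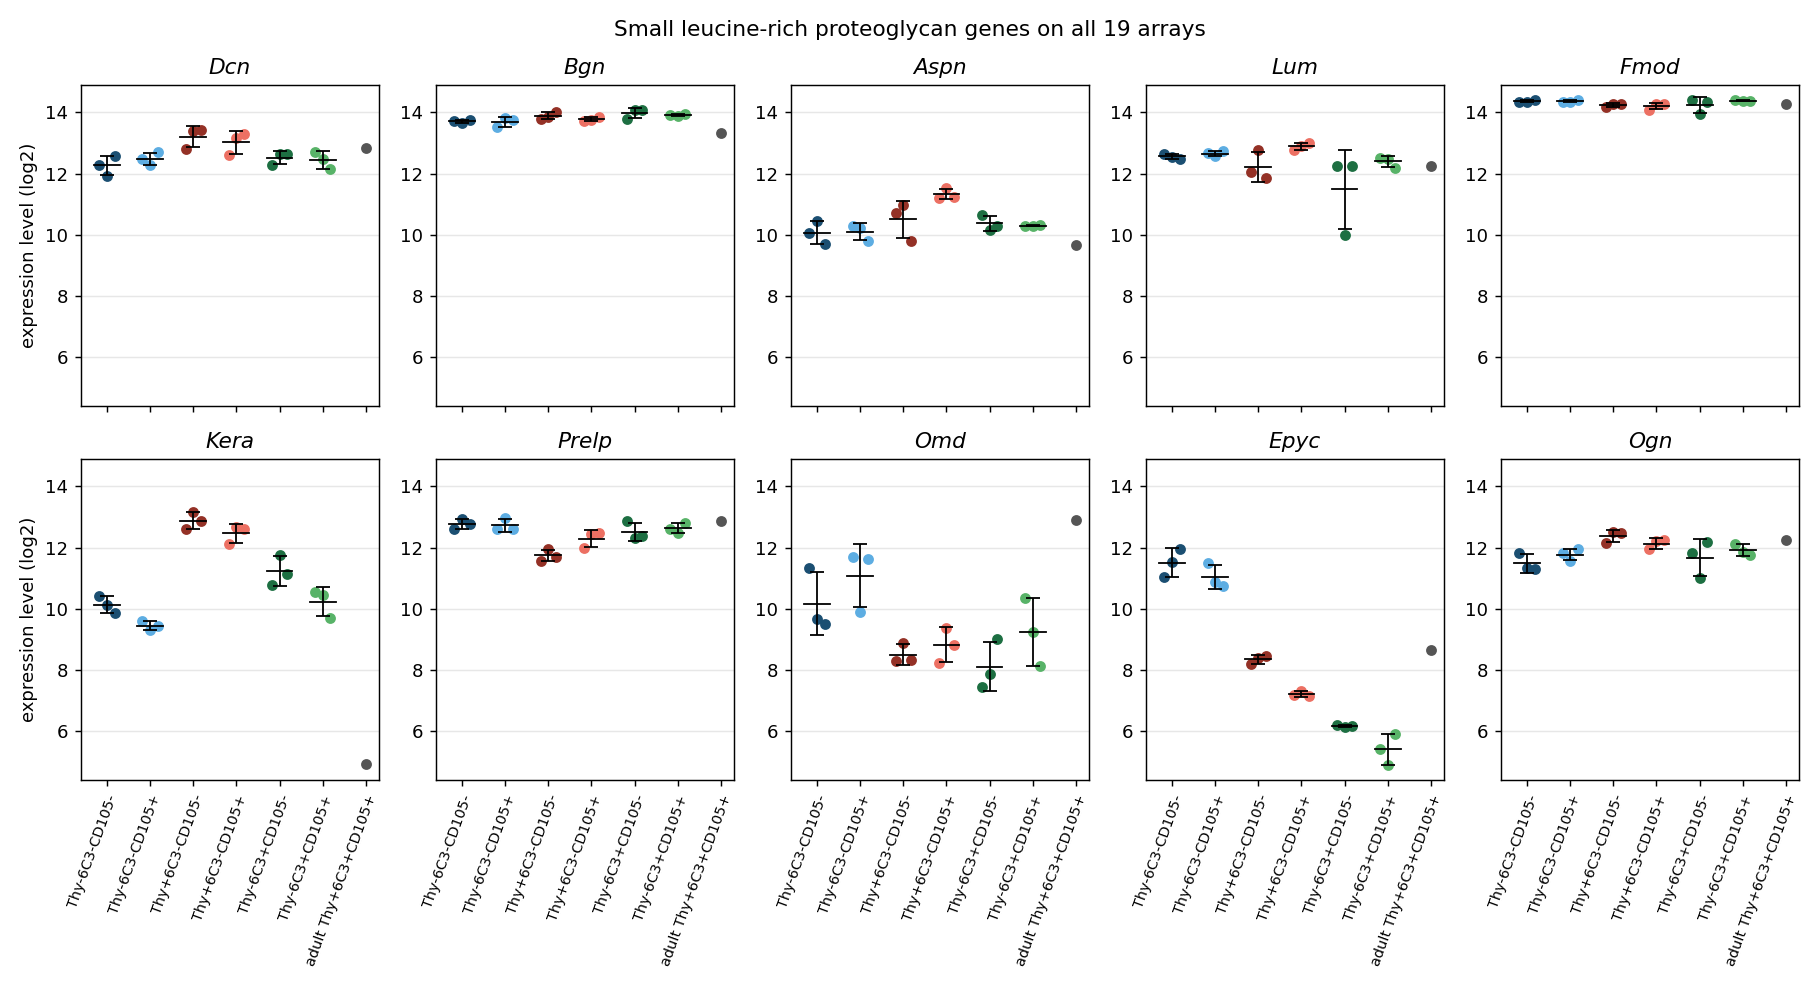
Expression level (log2, y axis) of each of the 10 genes on all 19 arrays, by population (x axis). Points are arrays, and bars are the mean and SD of 3 arrays. Epyc means run from 11.51 down to 5.41 and Kera means from 12.88 to 9.45, while Bgn and Fmod stay near the top of the scale.

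In class I, Dcn and Aspn were higher in Thy+ cells, each in 1 of the 2 Thy steps. Dcn encodes decorin, which binds collagen I fibrils and TGF-beta. It had 12.82, 13.39 and 13.44 in Thy+6C3-CD105- and at 12.30, 11.93 and 12.58 in Thy-6C3-CD105- cells. The groups did not overlap, and Dcn rose by 0.94 ± 0.22, or 1.92-fold (adjusted p = 0.00835). Among CD105+ cells the arrays overlapped, at 12.61, 13.17 and 13.30 against 12.48, 12.29 and 12.70, and the difference of 0.53 ± 0.22 did not pass (adjusted p = 0.210). Scaling the arrays to a common median alone left 0.59 (adjusted p = 0.104) in CD105- cells, and with the poly-A set as a block the CD105+ difference of 0.53 passed (adjusted p = 0.0438). The weaker Dcn probe set gave 0.74 ± 0.18 among CD105+ and 0.53 ± 0.18 among CD105- cells (adjusted p = 0.0222 and 0.0564), the reverse order of size.

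Aspn encodes asporin, a relative of decorin that carries no glycan chain and binds collagen and TGF-beta. Its levels in Thy+6C3-CD105+ cells, 11.21, 11.52 and 11.25, lay above all 15 other neonatal arrays, of which the highest had 10.98. In Thy-6C3-CD105+ cells Aspn was at 10.29, 10.24 and 9.79. It rose by 1.22 ± 0.26 in this Thy step, or 2.33-fold (adjusted p = 0.00567), and its other probe set by 1.41 ± 0.36 (adjusted p = 0.0282). Within the 11 arrays of high poly-A level the change was 1.35 and did not pass (adjusted p = 0.0660). In CD105- cells the step was 0.43 ± 0.26 (adjusted p = 0.242). There the Thy+ arrays had 10.73, 10.98 and 9.81, the last on the array that stands apart, without which the step was 0.77 and passed (adjusted p = 0.0300). All 8 pericyte and smooth muscle markers were also higher in the CD105+ Thy step, with a mean log2 level of 9.79 to 9.84 in Thy+6C3-CD105+ against 7.28 to 8.0 on all other neonatal arrays. Their part in the Aspn result was not tested.

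Bgn encodes biglycan, a class I proteoglycan of bone and cartilage matrix. It ranged from 13.51 to 14.09 over the 18 neonatal arrays, and passed in none of the steps. Its largest step, 0.27 ± 0.11 for 6C3 in CD105- cells, had an adjusted p of 0.256. The highest value on the scale is 14.41, close above these levels, so a missed threshold does not show that Bgn was alike in the populations. A second probe set for the gene gave steps of -0.15 ± 0.11 to 0.13 ± 0.11 for Thy and 6C3, none of which passed. The third differed in sign from the one used, at -0.96 ± 0.70 for 6C3 in CD105- cells and 1.24 ± 0.70 for CD105 in 6C3+ cells. Neither of these passed.

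In class II, Kera was the gene that rose most. It encodes keratocan, which carries keratan sulfate, is best known from the cornea and is also found in tendon. In Thy+6C3-CD105+ cells it was at 12.12, 12.68 and 12.59 and in Thy-6C3-CD105+ cells at 9.60, 9.29 and 9.44. Among CD105- cells it was at 12.62, 13.15 and 12.86 in Thy+ and at 10.42, 10.12 and 9.85 in Thy- cells. All 6 Thy+ arrays lay above all 12 Thy- arrays. Kera rose by 3.02 ± 0.26 among CD105+ cells, or 8.09-fold (adjusted p = 7.58e-07), and by 2.75 ± 0.26 among CD105- cells, or 6.72-fold (adjusted p = 1.84e-06). The Thy steps did not differ from each other beyond their error (interaction 0.27 ± 0.37, adjusted p = 0.717). In order, the means were 12.88 ± 0.27 and 12.46 ± 0.30 in Thy+ cells without and with CD105, 11.22 ± 0.49 and 10.23 ± 0.47 in 6C3+ cells without and with CD105, and 10.13 ± 0.28 and 9.45 ± 0.16 in Thy-6C3- cells without and with CD105. The 2 highest populations overlapped, as did the 6C3+CD105+ and Thy-6C3-CD105- ones.

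The 6C3+ populations lay between the others in Kera. In Thy-CD105- cells it rose by 1.09 ± 0.26 with 6C3, from 10.42, 10.12 and 9.85 to 10.76, 11.74 and 11.15 (adjusted p = 0.0286). In CD105+ cells the 6C3 step was 0.78 ± 0.26 and did not pass (adjusted p = 0.240), although the arrays did not overlap. The call in CD105- cells ended when any of 4 arrays was left out, namely Thy-6C3+CD105- replicate 2 (0.82), which stands apart, or replicate 3 (1.12), or Thy-6C3-CD105- replicate 2 (1.08) or 3 (0.95), with adjusted p between 0.0710 and 0.144. The step did not pass on the deposited values either (1.02, adjusted p = 0.0925). Replicates 2 and 3 of Thy-6C3+CD105-, at 11.74 and 11.15, are the arrays whose titles say Thy+. Grouped by title, which leaves replicate 1 alone in that population, the step was 0.63.

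Prelp encodes prolargin, which binds collagen and the heparan sulfate of perlecan and is abundant in cartilage. In CD105- cells it was at 11.57, 11.94 and 11.70 with Thy and at 12.61, 12.93 and 12.77 without. The groups were separate, and Prelp fell by 1.03 ± 0.18 on the log2 scale (adjusted p = 0.000855). In CD105+ cells the change was -0.43 ± 0.18 (adjusted p = 0.218), with 11.97, 12.43 and 12.47 against 12.59, 12.97 and 12.59. The other Prelp probe set passed in both Thy steps, at -1.11 ± 0.26 (adjusted p = 0.0174) among CD105+ and -1.27 ± 0.26 (adjusted p = 0.00497) among CD105- cells. Over the 18 arrays Prelp and Kera correlated at r = -0.81 and Kera and Dcn at r = 0.80, as a description of points that share populations and arrays.

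Omd encodes osteomodulin, also called osteoadherin, a keratan sulfate proteoglycan of mineralizing bone that binds integrin alpha V beta 3 and hydroxyapatite. It was highest in Thy-6C3-CD105+ cells, at 11.70, 9.90 and 11.62. Thy+6C3-CD105+ cells had 8.24, 9.38 and 8.83. It fell by 2.26 ± 0.60 on the log2 scale, or 4.79-fold (adjusted p = 0.0259), and the groups did not overlap. The call ended when Thy-6C3-CD105+ replicate 1 (-1.95) or 3 (-1.99) or Thy+6C3-CD105+ replicate 1 (-1.97) or 3 (-2.27) was left out, with adjusted p from 0.0814 to 0.136. The Thy step in CD105- cells was -1.67 ± 0.60 (adjusted p = 0.0599), and the 6C3 steps were -1.85 ± 0.60 and -2.06 ± 0.60 in CD105+ and CD105- cells (adjusted p = 0.213 and 0.0799). None of these 3 passed. Of 5 measured osteoblast markers, 2 and 4 fell in the Thy steps of CD105+ and CD105- cells (medians -1.40 and -2.80) and 1 and 2 in the 6C3 steps (-1.20 and -1.61). Their mean log2 level was 6.94 to 8.34 on Thy-6C3-, 5.67 to 6.84 on 6C3+ and 4.92 to 5.65 on Thy+ arrays. The part of osteoblasts in the Omd result was not tested.

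Within a population the Omd levels differed between arrays of high and low poly-A control level. In all 6 populations every array with a high level had more Omd than every array with a low level. The margin was small in Thy+6C3-CD105- cells, at 8.33 and 8.89 against 8.29. Among high arrays Omd did not always rise with the controls. In Thy-6C3+CD105+ cells, controls at 7.29 and 7.68 went with Omd at 10.34 and 9.23. In Thy-6C3-CD105- cells, for example, replicate 1 had 11.34 with poly-A controls at 6.82, and replicates 2 and 3 had 9.65 and 9.51 with controls at 4.92 and 3.97. With population means in the fit, high arrays exceeded low arrays by 1.23 ± 0.22 in Omd (adjusted p = 0.00450), where 5.74% of all genes passed. Kera also separated in all 6 populations, by 0.51 ± 0.10 (adjusted p = 0.00763), and Dcn in 5, by 0.39 ± 0.10 (adjusted p = 0.0238). For the other 7 genes the term did not pass, and for Epyc it was -0.15 ± 0.16 (adjusted p = 0.664). Among those 7, Ogn also separated in 5 populations (0.25 ± 0.13, adjusted p = 0.322) and Lum in 4, with the reverse order in 1. With 3 arrays per population such separation is easily met, and its share over all genes is not given. With the poly-A set as a block, Omd passed in all 4 Thy and 6C3 steps, at -2.26 (adjusted p = 0.000527), -2.07 (0.00116), -1.85 (0.0112) and -2.46 (0.000783). Kera then passed in both 6C3 steps, at 0.78 (adjusted p = 0.0178) and 0.92 (0.00402). How many of all genes passed with this block is not given here, so these calls are not read as particular to Omd and Kera. Within the 11 high arrays alone, Omd changed by -2.56 in the Thy step of CD105+ cells (adjusted p = 0.0119) and Kera by 3.11 (adjusted p = 0.000212). What the poly-A level stands for was not tested.

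**Figure D2:**
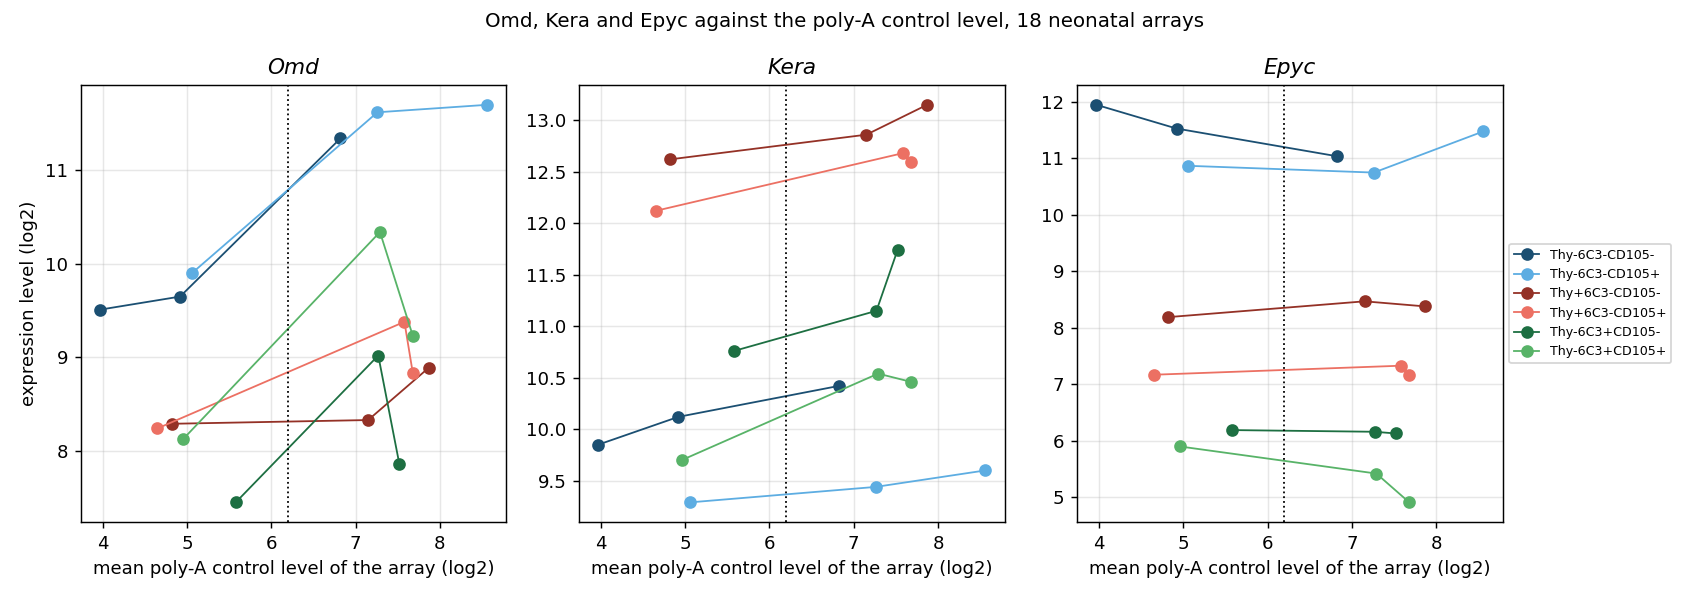
Expression level (log2, y axis) of Omd, Kera and Epyc against the mean level of 24 poly-A control probe sets (log2, x axis) on 18 neonatal arrays, with the 3 arrays of a population joined by a line and the dotted line at the split of 6.20. In each population Omd and Kera lie higher on arrays right of the split than on those left of it, while Epyc does so in 1 population.

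Lum and Fmod, the other class II genes, passed in none of the steps. They encode lumican and fibromodulin, keratan sulfate proteoglycans that compete for a site on collagen I during fibril growth. Lum was at 12.79, 12.90 and 13.01 in Thy+6C3-CD105+ cells, just above the 12.67, 12.57 and 12.73 of Thy-6C3-CD105+ cells, and the step of 0.24 ± 0.40 did not pass (adjusted p = 0.884). Its largest step was -1.07 ± 0.40 for 6C3 in CD105- cells (adjusted p = 0.215), where Thy-6C3+CD105- arrays had 12.25, 10.01 and 12.24. Without both arrays that stand apart it was -0.32 (adjusted p = 0.313). Fmod ranged from 13.94 to 14.41, up to the top of the scale, and whether the top of the scale compressed its differences was not tested. Its other 5 probe sets also passed in neither the Thy nor the 6C3 steps.

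The low Lum value lay on the array with low hybridization controls, and other probe sets of the family showed where such values fell. On Thy-6C3+CD105- replicate 2, 5 of the 21 probe sets were more than 1 log2 unit below the mean of the other 2 replicates. They were 1 for Bgn (-4.30), 2 for Fmod (-3.49 and -2.24), the only one for Lum (-2.24) and the weaker one for Aspn (-1.69). The probe sets that stand for these genes lay closer to their replicates, at 0.16 for Bgn, -0.45 for Fmod and -0.31 for Aspn. Ogn also split, with -0.98 for the one used and 0.49 for the other. On each of the 15 arrays of the other populations at most 1 probe set lay that low. Lum has no sister probe set, so its value there could not be set against another.

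**Figure D3:**
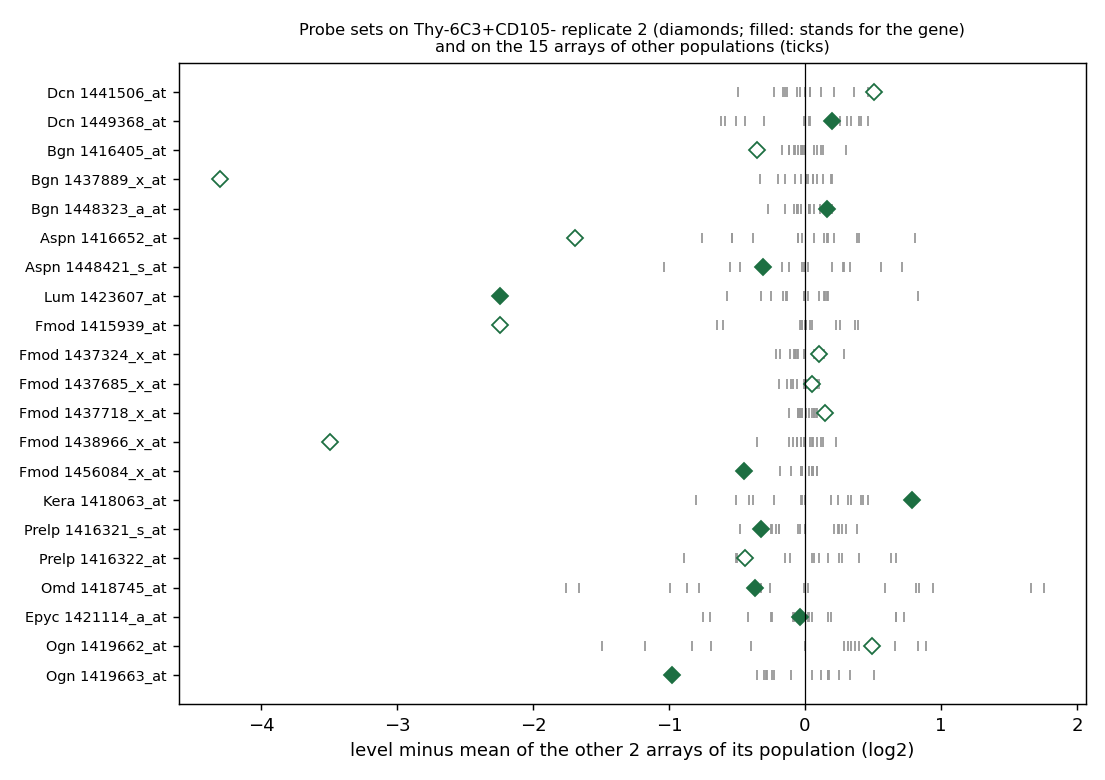
Level of each of the 21 probe sets minus the mean of the other 2 arrays of its population (log2, x axis), for Thy-6C3+CD105- replicate 2 (diamonds, filled where the probe set stands for its gene) and for the 15 arrays of the other 5 populations (ticks). Probe sets of Bgn, Fmod, Lum and Aspn lie as low as -4.30 on this array, while others for the same genes lie near 0.

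In class III, Epyc had the largest differences of the family, all downward from Thy-6C3- cells. It encodes epiphycan, a dermatan sulfate proteoglycan of growth plate cartilage. In Thy-6C3- cells it was at 11.04, 11.53 and 11.95 without CD105 and at 11.48, 10.87 and 10.75 with it. In Thy+ cells it was at 8.19, 8.38 and 8.47 without CD105 and at 7.17, 7.33 and 7.16 with it. In 6C3+ cells it was at 6.19, 6.13 and 6.16 without CD105 and at 5.42, 4.91 and 5.90 with it. From the second population in this order down, no population overlapped the next, with means of 11.03 ± 0.39, 8.35 ± 0.15, 7.22 ± 0.10, 6.16 ± 0.03 and 5.41 ± 0.50 after 11.51 ± 0.46.

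Epyc fell by 3.81 ± 0.26 in the Thy step of CD105+ cells, or 14.02-fold (adjusted p = 1.03e-07), and by 3.16 ± 0.26 in that of CD105- cells, or 8.95-fold (adjusted p = 3.88e-07). With 6C3 the measured fall was 5.62 ± 0.26 in CD105+ cells (adjusted p = 1.10e-09) and 5.35 ± 0.26 in CD105- cells (adjusted p = 1.26e-09). Compared directly, Thy+ cells had more Epyc than 6C3+ cells, with measured differences of 1.81 ± 0.26 with CD105 (adjusted p = 0.000374) and 2.19 ± 0.26 without (adjusted p = 0.000143). The 6C3+ levels of 4.91 to 6.19 lay near the mean levels of markers of cells sorted out. These ran from 5.08 to 5.85 for endothelial and 4.32 to 5.39 for erythroid markers. The arrays without CD105, at 6.13 to 6.19, lay above both ranges but within the 5.38 to 6.61 of myeloid and haematopoietic markers. No detection call was used here, so Epyc is not shown to be above background in 6C3+ cells, and the sizes of differences from them are not folds of transcript. The chondrocyte markers ordered the populations differently. All 10 were lower in both Thy steps, with median changes of -2.74 and -2.85, and 4 and 5 of 10 were lower in the 6C3 steps, with medians of -1.04 and -1.30. Their summed level was 13.99 to 14.24 on Thy+ and 15.12 to 15.35 on 6C3+ arrays on the log2 scale. The part of cartilage cells in the Epyc values was not tested.

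Ogn encodes osteoglycin, also called mimecan, found in bone and fibrous tissue. It was at 12.14, 12.50 and 12.49 in Thy+6C3-CD105- and at 11.82, 11.32 and 11.29 in Thy-6C3-CD105- cells. It rose by 0.90 ± 0.23 (adjusted p = 0.0155), with no overlap. The second probe set gave 1.53 ± 0.40 (adjusted p = 0.0180). The call ended on the values as deposited (0.61, adjusted p = 0.0690), with a common median alone (0.47, adjusted p = 0.217), and without Thy+6C3-CD105- replicate 3 (0.84) or Thy-6C3-CD105- replicate 3 (0.81). In CD105+ cells the step was 0.36 ± 0.23 (adjusted p = 0.560). Keratinocyte genes were also higher on Thy+6C3-CD105- arrays, with a mean log2 level of 6.70 to 7.43 against 5.41 to 6.10 on the other neonatal arrays. Their part in the Dcn, Ogn and Prelp results was not tested.

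Counted by comparison, 4 of the 10 genes passed in the Thy step of CD105+ cells (Kera and Aspn higher, Epyc and Omd lower), against 6.66% of all genes. In CD105- cells 5 passed (Kera, Dcn and Ogn higher, Epyc and Prelp lower), against 18%. As deposited, Ogn no longer passed in CD105- cells while Omd did (-2.02, adjusted p = 0.0257). With a common median alone, Dcn and Ogn no longer passed and Omd did (-2.16, adjusted p = 0.0223), leaving Kera higher and 3 genes lower. The median changes of the family were 0.17 and 0.03, and those of all genes -0.02 and 0.13. In the 6C3 steps, Epyc alone passed in CD105+ cells, against 1.36% of all genes, and Epyc and Kera passed in CD105- cells, against 2.74%. Family medians there were -0.01 and 0.03, and those of all genes 0.00 and 0.07. In the direct comparison of Thy+ with 6C3+ cells, 3 genes passed in CD105+ cells (Kera by 2.23 ± 0.26, Epyc by 1.81 ± 0.26 and Aspn by 1.03 ± 0.26, all higher in Thy+), against 2.59% of all genes. In CD105- cells Epyc and Kera (1.66 ± 0.26) were higher and Prelp lower (-0.78 ± 0.18), against 2.24%. Fitted on the arrays of those populations alone, Kera there did not pass (1.66, adjusted p = 0.0635). The Aspn call (adjusted p = 0.0391) ended when any of the 6 arrays compared, Thy-6C3-CD105+ replicate 2 or Thy-6C3-CD105- replicate 1 was left out, at 0.93 to 1.09. Aspn did not pass on the deposited values (1.04, adjusted p = 0.107) or with a common median (1.06, adjusted p = 0.196). Nor did it pass within the arrays of high poly-A level (1.09, adjusted p = 0.327) or on its other probe set (1.16, adjusted p = 0.181). The Prelp call (adjusted p = 0.0260) ended without Thy+6C3-CD105- replicate 1 (-0.69) or 3 (-0.76) or Thy-6C3+CD105- replicate 1 (-0.61). It also ended on the other Prelp probe set (-0.55, adjusted p = 0.322), on the mean of both (-0.66, adjusted p = 0.0679) and with the arrays of those populations alone (-0.78, adjusted p = 0.311). The Thy and 6C3 steps within a CD105 state share their Thy-6C3- arrays, so their values are not independent.

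**Figure D4:**
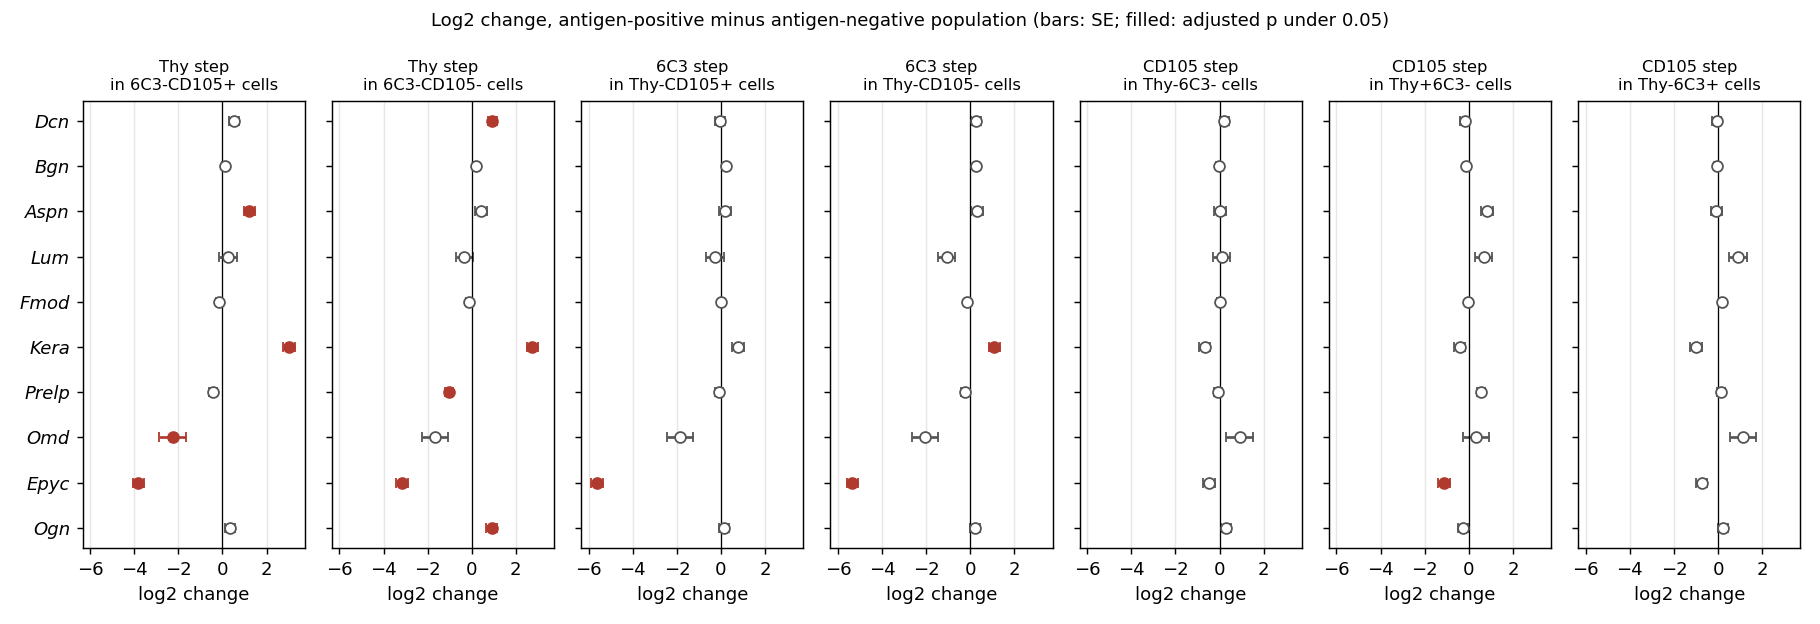
Log2 change (x axis; bars are the SE of the fit) of each gene (y axis, in class order) in the 7 single-antigen steps, with filled points where the adjusted p is under 0.05. Epyc lies between -3.16 and -5.62 in the 4 Thy and 6C3 steps, Kera at 3.02 and 2.75 in the Thy steps, and Bgn and Fmod, whose levels are near the top of the scale, between -0.16 and 0.27.

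Between cells that differ in CD105 alone, Epyc in Thy+ cells was the single call. In Thy-6C3- cells 0 of the 10 genes and 0.00550% of all genes passed in limma. Kera had an unadjusted p under 0.05 there, as 1 of the 10, where 1.75% of all genes did. In Thy-6C3+ cells 0 of 10 genes and 0% of all genes passed. Kera, Lum and Epyc, 3 of 10, had an unadjusted p under 0.05 there, where 2.74% of all genes did. The Lum difference of 0.90 was 0.15 without both arrays that stand apart. In Thy+6C3- cells Epyc fell by 1.13 ± 0.26 on the log2 scale with CD105 (adjusted p = 0.0484), against 1.02% of all genes. That share rests on 185 genes, a count that ran from 78 without Thy+6C3-CD105+ replicate 3 to 733 without Thy+6C3-CD105- replicate 1. As deposited Epyc did not pass there (-0.82, adjusted p = 0.0945) and Prelp did, higher with CD105 by 0.87 (adjusted p = 0.0492). The Epyc call also ended when any of 11 arrays was left out, with values of -1.06 to -1.18 and adjusted p of 0.0508 to 0.211. They were the 3 of Thy+6C3-CD105+, replicates 2 and 3 of Thy+6C3-CD105- and of Thy-6C3-CD105+, replicates 1 and 2 of Thy-6C3+CD105-, replicate 1 of Thy-6C3+CD105+ and replicate 2 of Thy-6C3-CD105-. The Epyc differences in Thy-6C3- and 6C3+ cells were -0.48 ± 0.26 and -0.75 ± 0.26, and those of Kera were -0.68, -0.41 and -0.99, each ± 0.26, in Thy-6C3-, Thy+ and 6C3+ cells. Whether the Thy step differs with CD105 was tested by an interaction, which 0 of 10 genes and 0.269% of all genes passed in limma. Prelp (0.61 ± 0.25) and Aspn (0.80 ± 0.36), 2 of 10, had an unadjusted p under 0.05 there, as did 16.7% of all genes. In the interaction of 6C3 with CD105, 0 of 10 genes and 0% of all genes passed. An unadjusted p under 0.05 was seen there for 0 of 10 members and 2.98% of all genes.

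In the mouse genome, 9 of the 10 genes lie beside another family member. By the RefSeq order of protein-coding genes, Dcn, Lum, Kera and Epyc follow each other on chromosome 10, Aspn, Omd and Ogn on chromosome 13, and Prelp and Fmod on chromosome 1, while Bgn stands alone on chromosome X. Kera rose and Epyc fell in both Thy steps (3.02 and 2.75 against -3.81 and -3.16), with Lum beside Kera passing in neither. On chromosome 13, Omd fell in the Thy step of CD105+ cells (-2.26) while Aspn, on 1 side, rose (1.22) and Ogn, on the other, stood at 0.36. Over the 18 arrays Kera and Epyc correlated at r = -0.39, Aspn and Omd at r = -0.35 and Omd and Ogn at r = -0.03.

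**Figure D5:**
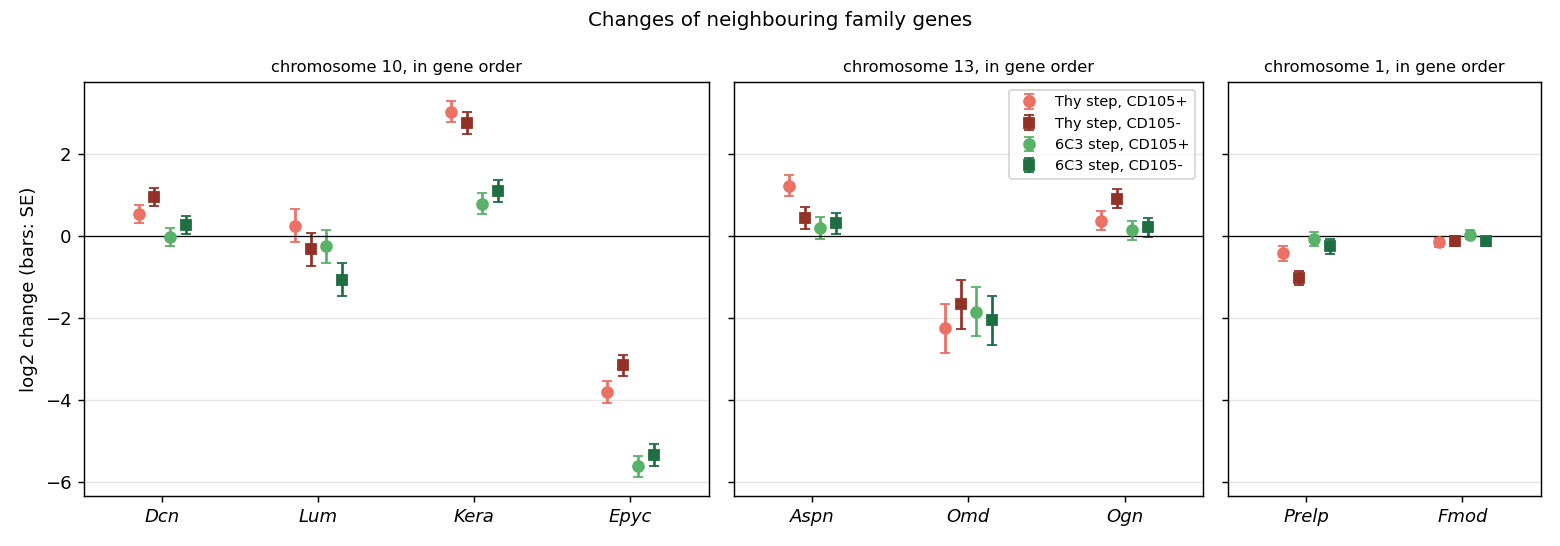
Log2 change (y axis; bars are the SE of the fit) of neighbouring family genes in gene order (x axis, not to scale) in the Thy and 6C3 steps among CD105+ (circles) and CD105- cells (squares). Kera lies above 0 and its neighbour Epyc below 0 in all 4 steps, and Omd lies below 0 between Aspn and Ogn.

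The 250 bases before the start are shown for 4 genes with family neighbours, Epyc from the chromosome 10 group and the 3 genes of chromosome 13. They are from RefSeq's table for GRCm38.p6, 5′ to 3′ along the gene, and capitals mark AACAAT or its reverse complement ATTGTT, the core that SOX proteins bind.
Epyc, chr10:97643818-97644067, plus strand: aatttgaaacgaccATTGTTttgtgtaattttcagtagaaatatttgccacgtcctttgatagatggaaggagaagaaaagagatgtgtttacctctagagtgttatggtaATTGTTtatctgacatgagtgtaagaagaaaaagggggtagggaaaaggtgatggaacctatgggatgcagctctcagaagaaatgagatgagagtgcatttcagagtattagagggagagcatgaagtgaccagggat
Aspn, chr13:49544193-49544442, plus strand: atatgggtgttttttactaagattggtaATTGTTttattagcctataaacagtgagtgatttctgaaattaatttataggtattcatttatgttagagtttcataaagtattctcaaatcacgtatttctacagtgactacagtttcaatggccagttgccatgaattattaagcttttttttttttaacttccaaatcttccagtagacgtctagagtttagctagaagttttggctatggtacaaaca
Omd, chr13:49582212-49582461, plus strand: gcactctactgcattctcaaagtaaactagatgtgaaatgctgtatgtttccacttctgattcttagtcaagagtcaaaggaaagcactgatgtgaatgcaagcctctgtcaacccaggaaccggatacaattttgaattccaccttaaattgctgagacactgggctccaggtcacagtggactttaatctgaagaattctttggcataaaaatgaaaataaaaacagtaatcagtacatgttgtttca
Ogn, chr13:49607765-49608014, plus strand: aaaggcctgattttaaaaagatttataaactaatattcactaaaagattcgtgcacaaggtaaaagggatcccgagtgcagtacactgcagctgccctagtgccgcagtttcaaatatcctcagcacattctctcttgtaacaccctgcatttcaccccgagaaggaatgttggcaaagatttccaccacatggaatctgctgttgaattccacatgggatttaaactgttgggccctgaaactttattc
The table held windows for 8 of the 10 genes. Epyc has a pair of windows, with 2 matches in the one shown and 3 in the other, which lies wholly inside the annotated gene. Of all 32851 windows of this length, 9.42% hold at least 1 match on either strand, 0.904% at least 2 and 0.0761% at least 3. Kera, the neighbour of Epyc that rose, had 2 matches, in a window that is not shown and lies almost wholly inside the annotated gene. Prelp had 1, in a window wholly inside the annotated gene, Aspn had 1, and Omd, Ogn, Fmod and Bgn had 0. The E-box CANNTG is the core of bHLH factors such as scleraxis and reads the same on both strands. It matched 3 times in Ogn, 1 time each in Aspn, Fmod and Bgn and not in the Omd, Kera, Prelp or first Epyc window. Of all windows, 66.2% hold it at least 1 time and 12.2% at least 3 times. TATAAA or its reverse complement TTTATA matched 2 times each in Aspn and Ogn, where 12.4% of windows hold it at least 1 time and 2.1% at least 2 times. The 2 matches in Ogn overlap in the same stretch, and those in Aspn are separate. Each motif was searched on its own, and overlaps between motifs were not examined. Sox9, the SOX factor of cartilage, was at 10.73 ± 0.31 and 10.62 ± 0.49 in the Thy-6C3- populations without and with CD105, at 7.91 ± 1.14 and 7.87 ± 0.54 in the Thy+ and at 9.12 ± 0.36 and 9.13 ± 0.46 in the 6C3+ populations. The motifs were picked with the expression results known, and a match describes letters, not a site or a cause.

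Other genes of the pathway were counted beside the 6.66% and 18% of all genes that passed in the Thy steps of CD105+ and CD105- cells and the 1.36% and 2.74% in the 6C3 steps. The lists are small, and nothing particular to a list is read from its count. Of 11 measured keratan sulfate genes, 1 rose and 2 fell in each Thy step, and 1 rose and 1 fell in each 6C3 step. The gene that rose in all 4 was Chst5, a sulfotransferase of keratan sulfate, which was at 11.05 ± 0.13 and 10.07 ± 0.27 in the Thy+ populations without and with CD105 and at 8.20 ± 0.39 and 7.83 ± 0.19 in the Thy-6C3- populations. It rose by 2.85 ± 0.23 and 2.23 ± 0.23 with Thy and by 1.27 ± 0.23 and 1.23 ± 0.23 with 6C3. Papss2, which makes the sulfate donor, fell in all 4 steps, by 1.14 to 2.00 on the log2 scale. Of 21 measured genes of chondroitin and dermatan sulfate synthesis, 1 rose (Chst7) and 3 and 5 fell in the CD105+ and CD105- Thy steps. Chst11, a chondroitin 4-sulfotransferase, fell by 2.67 ± 0.19 and 3.02 ± 0.19 there.

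Among 6 other leucine-rich repeat matrix genes, Chad and Chadl fell in both Thy steps and the other 4 did not pass. Chad encodes chondroadherin of cartilage. Among CD105+ cells it averaged 12.90 ± 0.11 without Thy or 6C3 and 11.19 ± 0.24 with Thy. Chadl, its relative, fell in the 6C3 steps as well, with changes of -2.73 ± 0.35 and -3.27 ± 0.35. Of the 18 fibril collagens and their partners, 6 fell in each Thy step, all of them chains of the cartilage collagens II, IX and XI. In CD105+ cells 3 rose (Col5a3, Col1a1 and Col14a1) and in CD105- cells 1 (Col14a1). Of 13 measured genes of collagen crosslinking and processing, 3 rose and 4 fell in CD105+ and 4 rose and 5 fell in CD105- cells, with Lox, the lysyl oxidase that fibromodulin binds, higher by 1.38 ± 0.34 in CD105+ cells. Of 12 proteases that cleave proteoglycans, 3 rose in CD105+ cells, among them Adamts5 (1.75 ± 0.39), and in CD105- cells 2 rose and Mmp13 fell by 3.43 ± 0.41. Of 18 ligands and receptors bound by the family, 2 rose and 1 fell in CD105+ and 5 rose and 3 fell in CD105- cells. Met, a receptor bound by decorin, rose by 1.93 ± 0.43 and Bmp2 fell by 4.18 ± 0.51, in CD105+ and CD105- cells respectively.

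The genes whose levels over the 18 neonatal arrays correlated best with each member, among 9086 candidates above the median level, were Ptx4 (r = 0.951), Mfap4 (0.944) and Mfsd6 (0.942) for Kera. For Epyc they were Sfrp1 (0.958), Cd24a (0.942) and Enho (0.929), and for Omd Btg2 (0.938), Irf1 (0.892) and Aldh6a1 (0.873). For Aspn the closest was Atrnl1 (0.944), for Dcn Psip1 (0.925), for Ogn Abhd14b (0.936), for Prelp Mageh1 (0.888), for Lum Slc39a10 (0.939) for Bgn Sdc1 (0.892) and for Fmod Capn6 (0.924). Within the family the highest correlations were Kera with Dcn (0.80) and Dcn with Ogn (0.71), and the lowest Kera with Prelp (-0.81) and Dcn with Prelp (-0.69). These values describe 18 arrays that share populations. On Thy-6C3+CD105- replicate 2, which stands apart, Lum (10.01) and Fmod (13.94) had their lowest neonatal levels. How far their correlations rest on that array was not tested. Bgn and Fmod lie near the top of the scale. Kera, Dcn and Omd differed between arrays of high and low poly-A level within populations.

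On the adult array, which is a single sample with no test, Kera and Omd lay outside the neonatal range. Kera was at 4.93, where the lowest neonatal array had 9.29. This is near the 4.73 and 5.07 of the erythroid and endothelial markers on that array, so Kera is not shown to be above background there and no size is given. Omd was at 12.89, which is 1.19 above the highest. Bgn (13.34) and Aspn (9.66) lay 0.17 and 0.06 below the lowest neonatal array. The other 6 genes fell within the neonatal range, with Epyc at 8.64, near the Thy+6C3-CD105- arrays. The mean log2 level of the 10 tendon and fibrous markers was 7.94 on this array and 10.25 to 11.89 on the neonatal arrays, and that of the chondrocyte markers was 11.58. Age, tissue source and antigens all differ between this array and the others and cannot be told apart.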

How the data were processed

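Log2 expression values of 45101 probe sets on 19 arrays were used as deposited; per the labels' protocols, cells were sorted after collagenase digestion, the RNA went through repeated amplification, and arrays were scanned with GCOS. The steps from scan to deposited log2 value are not given in the sources used here. Array medians ran from 5.60 to 6.02, so values were quantile normalized. Controls (64), probe sets with several symbols (932) and with none (9160) were left out; symbols came from the platform annotation, and 34754 probe sets matched a RefSeq gene. limma 3.58.1 (R 4.3.3) fitted 1 mean per population (12 residual and 5.38 prior degrees of freedom, trend; two-sided). No low values were filtered. The text names all 10 genes, and of each other list up to 4 called genes by size of change; Scx, Thy1 and Sox9 are markers, and Chst7, Col5a3, Col1a1 and Col14a1 were named after their values were seen. The members and gene lists were chosen with earlier results of these data known. The fit was tested on simulated arrays. Figures used matplotlib 3.10.9.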

Additional observations from a re-analysis of the deposited data

How the results depend on the processing

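Alternatives changed the scaling, probe sets, low-value filter, variance trend, array weights, blocks, grouping by title and arrays used. Grouping by title leaves 1 array in Thy-6C3+CD105-, assumed to vary like the others, so a call lost there says little. Leaving out both arrays that stand apart was chosen after seeing the data. None turned the direction of a member's call, and counts of members called stayed within 1.5 times of the main count except as follows. For 6C3 in CD105+ cells (1 called) array weights gave 2 and the poly-A block 3. No count of all genes is given for that block. For 6C3 in CD105- cells (2 called) the deposited values, a common median, grouping by title, the compared populations alone and the fit without both arrays each gave 1, and single arrays left out gave 1 to 2. For CD105 in Thy+6C3- cells (1 called) genes above the median level, the high poly-A set, titles, the compared populations and the fit without both arrays gave 0, array weights 3, and single arrays 0 to 1. For Thy+ against 6C3+ in CD105- cells (3 called) the compared populations alone gave 1 and single arrays 2 to 4. Single arrays left out gave 2 to 3 for the same contrast in CD105+ cells and 4 to 7 in the F-test over all populations. Over the Thy steps single arrays left out gave 3 to 4 and 4 to 6 members, and 781 to 1623 and 1549 to 4218 of all genes. For all genes in the 6C3 steps they gave as few as 105 (247 in full) and 359 to 786 (498), for CD105 in Thy+6C3- cells 78 to 733 (185), for Thy+ against 6C3+ 291 to 580 (471) and 221 to 803 (407), and for the Thy by CD105 interaction 25 to 104 (49). The extremes came without Thy-6C3-CD105+ replicate 3, Thy-6C3-CD105- replicate 3, Thy+6C3-CD105+ replicate 3, any of the Thy+6C3-CD105- arrays, Thy-6C3+CD105+ replicate 1 or Thy-6C3+CD105- replicate 2. Replicate numbers do not pair the arrays: of 45 same-numbered pairs 19 correlated above 0.1 (median 0.03, against 0.01 for other pairs), and 7 of 18 arrays correlated best with their own number. Of all genes, array weights called 2889 against 1211 in the Thy step of CD105+ cells, 652 against 247 for 6C3 in CD105+ cells, 2567 against 185 for CD105 in Thy+6C3- cells, 1500 against 471 for Thy+ against 6C3+ in CD105+ cells, 645 against 49 in the Thy by CD105 interaction and 3898 against 1845 in the F-test. The compared populations alone called 1182 against 3271 in the Thy step of CD105- cells, 204 against 498 for 6C3 in CD105- cells, 68 for CD105 in Thy+6C3- cells, and 816 and 33 against 471 and 407 for Thy+ against 6C3+ with and without CD105. The high poly-A set alone called 761, 87, 59, 219 and 184 in the CD105+ Thy and 6C3 steps, the CD105 step of Thy+6C3- cells and the 2 Thy+ against 6C3+ contrasts. It was not run where a group kept fewer than 2 arrays. With the replicate block 307 genes passed for CD105 in Thy+6C3- cells, and 4, 5, 1 and 2 members passed in the Thy and 6C3 steps. Scaling to a common median moved the median of all genes from 0.13 to -0.05 in the Thy step of CD105- cells and from -0.08 to 0.15 in the CD105 step of Thy+6C3- cells. No counts underlie the values, so signal near the top of the scale (Bgn, Fmod) and below the median gene (Epyc) limits what can be read.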
